A study of Mus musculus with 7 samples.

Results

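Cadherins are calcium-dependent adhesion proteins, and the mouse genes of 2 of their families, the cadherins with a numbered Cdh symbol and the protocadherins, were followed here in whole-brain RNA of 7 male C57BL/6J mice of 21 weeks. The members were all genes on the array whose symbol starts with Pcdh, or with Cdh and a digit, apart from Cdh5, a marker of blood vessel endothelium. They numbered 77 of the 16593 genes with a probe, and 99 of the 25697 probes. The wild-type group held 4 mice carrying the C57BL/6J allele, and the knockout group held 3 mice homozygous for an allele labelled ko that removes Duf1220, a protein domain encoded in the mouse by Pde4dip. The labels name no Cre or transgene and no brain region, and list a separate mouse for every array. RNA was measured on Illumina BeadArrays, where labelled cRNA binds to bead-borne DNA probes and the brightness of a probe is the measurement.

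Classical cadherins bind the same cadherin on the neighbouring cell through their outer domains and hold the actin skeleton through catenins on the inside. Type I members such as Cdh1 and Cdh2 are widely expressed in epithelia and neural tissue, and type II members such as Cdh8 mark particular groups of neurons and their connections. Cdh13 has no cytoplasmic part and is anchored in the membrane by a lipid. The clustered protocadherins lie side by side in an alpha, a beta and a gamma array of genes, from which single neurons choose a few promoters, so that neighbouring neurons carry different combinations on their surface. Alpha and gamma transcripts join a variable first exon to constant exons common to their cluster, whereas a beta gene is a single exon. The non-clustered protocadherins, split into delta-1 and delta-2 groups by their cytoplasmic domains, are expressed in restricted brain regions and take part in cell sorting and axon growth.

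The members divided into 13 classical cadherins (4 of type I and 9 of type II), 5 other Cdh genes, 50 clustered protocadherins and 9 non-clustered protocadherins. All 50 clustered genes lay on mouse chromosome 18 by the RefSeq gene table, as did Cdh2 and Pcdh1. The alpha cluster was represented by 8 genes, the beta cluster by 22 and the gamma cluster by 20. The values are deposited, normalized intensities. Those under 16 were raised to 16, which is 4 on the log2 scale, and a probe was tested if it lay above 16 on at least 3 of the 7 arrays. By that filter 27 member genes, with 32 probes, were tested, which is 35.1% of the member genes against 54.7% of all genes on the array. The share was 61.5% for the classical cadherins, 55.6% for the non-clustered protocadherins and 26% for the clustered ones. A gene counted as tested if any of its probes passed, and the classes differ in probes per gene. Counted by probe, 9 of 24, 8 of 15 and 13 of 51 were tested in these classes. At 38 member genes no probe exceeded 16 on any array, and a member listed so low was not detectable here rather than shown to be silent.

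The arrays were alike in scale, with a median intensity of 14.6 on each, and their number limits the precision. Wild-type arrays 2 and 3 stood apart from the others: over all tested probes the mean correlation of array 2 with the other arrays was 0.932 and that of array 3 was 0.970, against 0.976 to 0.981 for the rest. Differences are given with all 7 arrays and, for the members described with every array, again without this pair. At the brightest probe of Pde4dip the intensities were 2228, 2502, 2198 and 2157 in wild type and 1233, 1442 and 1498 in knockout, so the groups did not overlap (p = 0.0286 by an exact permutation test, whose 35 splits can give no smaller p). Limma gave a log2 difference of -0.71 (SE 0.15) there, with an adjusted p of 0.754, and a difference of 0.012 at the probe ILMN_2751354 of the same gene. The dim Pde4dip probe ILMN_1215884 gave -0.35 (SE 0.30), with overlapping groups. Of the 8 neuron markers looked up, 6 were measured, with a summed intensity of 27763 to 31981 in wild type and 29626 to 30158 in knockout, while Snap25 and Nefl were under the filter.

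At the 27 member genes that could be tested no transcript passed the limma test in the knockout brain, and none of the whole array did. At an adjusted p under 0.05 the count was 0 of 32 member probes, beside 0% of the 12833 probes tested, so this count says nothing particular to the members. At an unadjusted p under 0.05 it was 1 of 32, the type II cadherin Cdh12, beside 4.2% of all tested probes. The knockout and wild-type values were fully separated at 0 of 32 member probes, beside 7.39% of all tested probes. These counts rested on single arrays: leaving out wild-type array 4 raised both from 1 and 0 to 7, against 12.7% of all probes at that unadjusted p and 23.1% with separate groups, and leaving out any of wild-type arrays 1, 2 and 3 or knockout arrays 2 and 3 took the unadjusted count to 0. Of the 32 differences 15 were above 0 and 17 below, and the lowest adjusted p among them was 0.754. The median standard error of a member difference was 0.23 on the log2 scale. Because the RNA came from bulk brain, fewer cells of a type and less RNA per cell cannot be told apart in any of these values.

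**Figure D1:**
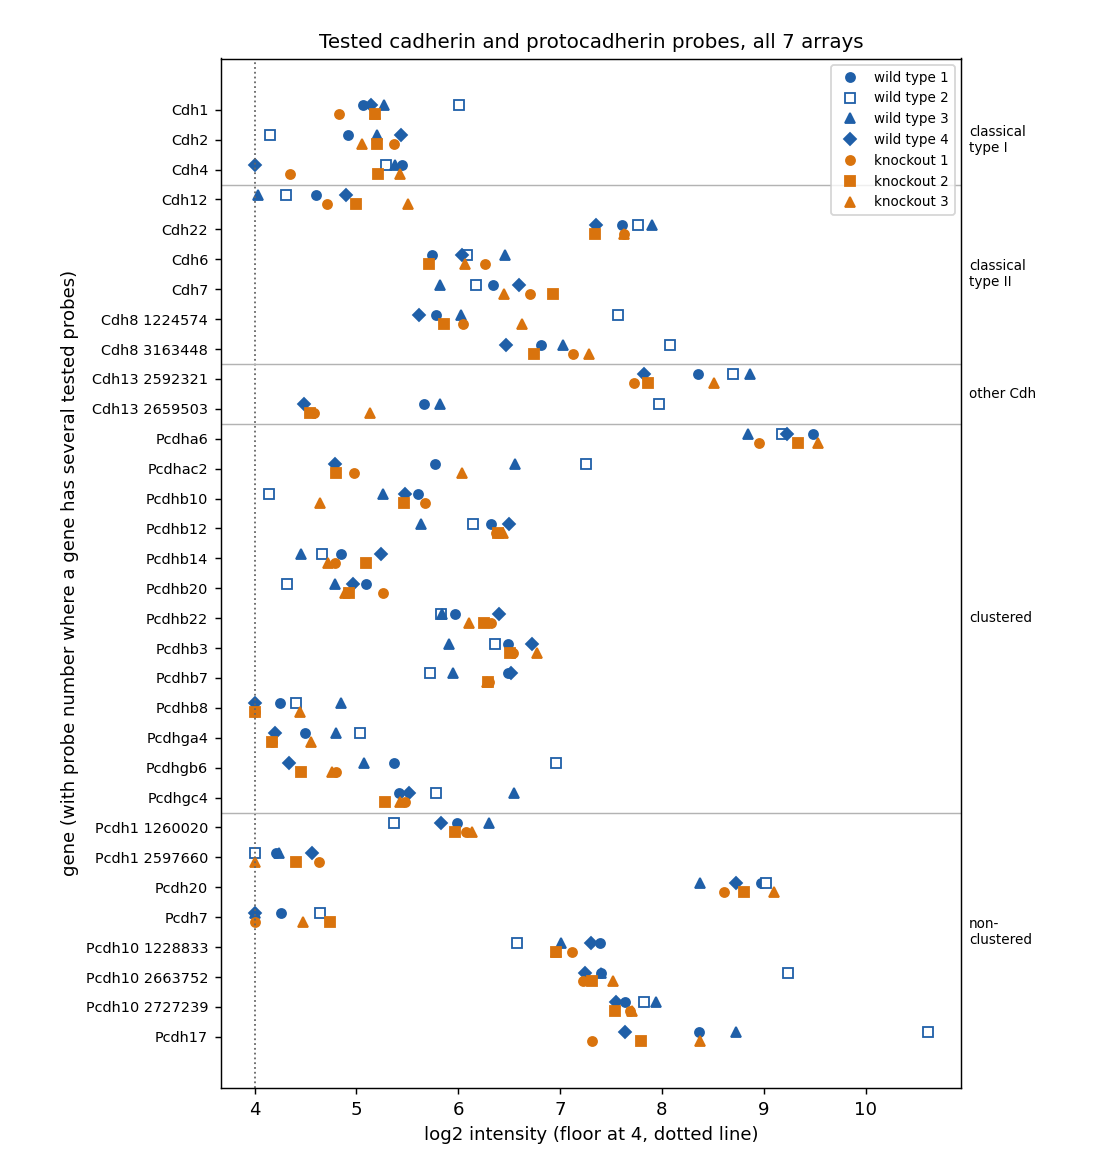
Log2 intensity, floored at 4 (dotted line), of the 32 tested cadherin and protocadherin probes on each of the 7 arrays, grouped by class; blue symbols are wild-type arrays, with array 2 open, and orange symbols are knockout arrays. The groups overlap in every line, and the open squares lie far to the right for Pcdh17, both probes of Cdh8, 1 probe of Cdh13, 1 probe of Pcdh10, Pcdhac2 and Pcdhgb6.

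Among the type I cadherins, Cdh1, Cdh2 and Cdh4 could be tested. Cdh1, the epithelial E-cadherin, gave log2 intensities of 5.06, 6.01, 5.27 and 5.14 in wild type and 4.83, 5.18 and 5.18 in knockout. Wild-type array 2 was the highest and knockout array 1 the lowest, and the difference was -0.31 (SE 0.25), or -0.038 without wild-type arrays 2 and 3. Cdh2, the N-cadherin of neural progenitors and synapses, gave 4.92, 4.15, 5.20 and 5.44 in wild type and 5.37, 5.20 and 5.05 in knockout at the probe ILMN_2764136. Here array 2 of wild type was the lowest of all 7, and the knockout values lay within the wild-type range. The difference was 0.28 (SE 0.29), and 0.027 without wild-type arrays 2 and 3. The remaining Cdh2 probes stayed under 16 on all arrays. Cdh4, the retinal R-cadherin, gave 5.45, 5.29, 5.38 and 4.00 in wild type and 4.35, 5.21 and 5.43 in knockout. The floor value belongs to wild-type array 4, knockout array 1 was next lowest, and the comparison gave a difference of -0.032 (SE 0.40), which became 0.27 without wild-type arrays 2 and 3.

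Of the 9 type II cadherins 5 were tested, and Cdh12 and Cdh7 had the 2 largest positive differences of all members. Cdh12, a brain cadherin, gave 4.60, 4.31, 4.03 and 4.90 in wild type and 4.71, 5.0 and 5.51 in knockout. Knockout array 1 lay below wild-type array 4, so the groups overlapped. The difference was 0.61 (SE 0.26, 95% interval 0.015 to 1.21), with an adjusted p of 0.754 in limma and an exact permutation p of 0.114. Without wild-type arrays 2 and 3, the 2 lowest of the 7, it was 0.32. Cdh7, a cadherin of neural crest derivatives and of neurons, gave 6.34, 6.17, 5.82 and 6.60 in wild type and 6.70, 6.93 and 6.45 in knockout. Knockout array 3 lay within the wild-type range and the other two above it. The difference was 0.46 (SE 0.22), with an exact permutation p of 0.114, and 0.22 without wild-type arrays 2 and 3. Wild-type arrays 2 and 3 were again the 2 lowest.

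Cdh8, a cadherin of synapses in cortical and other circuits, was read by 2 tested probes annotated to different transcripts. The remaining Cdh8 probes stayed under 16 on all arrays. The probe ILMN_1224574 gave 5.78, 7.57, 6.03 and 5.61 in wild type and 6.05, 5.86 and 6.63 in knockout. The probe ILMN_3163448 gave 6.81, 8.08, 7.03 and 6.47 in wild type and 7.13, 6.74 and 7.28 in knockout. Both were highest on wild-type array 2 and next highest on knockout array 3. The differences were -0.065 (SE 0.45) and -0.044 (SE 0.36), and 0.49 and 0.42 without wild-type arrays 2 and 3. Cdh6, a cadherin of kidney and brain, gave 5.74, 6.09, 6.46 and 6.04 in wild type and 6.26, 5.71 and 6.07 in knockout, with a difference of -0.071 (SE 0.21), or 0.12 without that pair. Cdh22, expressed in pituitary and brain, gave 7.61, 7.76, 7.90 and 7.35 in wild type and 7.63, 7.34 and 7.63 in knockout, with a difference of -0.13 (SE 0.18), or 0.050 without the pair. At Cdh22 no knockout array reached wild-type arrays 2 and 3, the 2 highest, and at both genes the groups overlapped.

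Cdh13, also called T-cadherin, was the only other Cdh gene tested, and it had the largest negative difference of all member probes. The probe ILMN_2659503 gave 5.66, 7.97, 5.82 and 4.48 in wild type and 4.58, 4.54 and 5.13 in knockout. The wild-type values spanned more than 3 log2 units, and wild-type array 4 lay below every knockout array. The difference was -1.23 (SE 0.68), with a 95% interval of -2.79 to 0.33 and p = 0.200 by the exact permutation test, and -0.32 without wild-type arrays 2 and 3. The probe ILMN_2592321 of the same gene gave 8.35, 8.70, 8.86 and 7.82 in wild type and 7.73, 7.86 and 8.51 in knockout. Wild-type array 4 lay with knockout arrays 1 and 2 at the low end, and the difference was -0.40 (SE 0.29), or -0.055 without wild-type arrays 2 and 3.

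Among the delta-2 protocadherins, Pcdh17 and Pcdh10 were tested. Pcdh17, which organises presynaptic assemblies in corticobasal circuits, gave 8.36, 10.61, 8.73 and 7.64 in wild type and 7.31, 7.79 and 8.37 in knockout. Array 2 of wild type lay far above the rest and array 4 among the knockout values. The difference was -1.02 (SE 0.62), with a 95% interval of -2.44 to 0.41 and p = 0.286 by the exact permutation test, and -0.18 without wild-type arrays 2 and 3. Pcdh10, needed for the growth of striatal and thalamocortical axons, was read by 3 probes. The probe ILMN_2663752 gave 7.40, 9.24, 7.40 and 7.24 in wild type and 7.22, 7.31 and 7.52 in knockout, so that array 2 of wild type alone stood out. The probe ILMN_1228833 gave 7.39, 6.58, 7.01 and 7.30 in wild type and 7.12, 6.96 and 6.96 in knockout, with the same array lowest. The probe ILMN_2727239 gave 7.64, 7.82, 7.94 and 7.55 in wild type and 7.69, 7.54 and 7.71 in knockout. The 3 differences were -0.47 (SE 0.45), -0.055 (SE 0.21) and -0.090 (SE 0.15). They were 0.034, -0.33 and 0.051 without wild-type arrays 2 and 3.

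All 3 tested delta-1 protocadherins were slightly above 0. Pcdh1, found at cell contacts in epithelia and brain, gave 5.99, 5.37, 6.30 and 5.83 in wild type and 6.08, 5.97 and 6.13 in knockout at the probe ILMN_1260020, with a difference of 0.19 (SE 0.22), or 0.15 without that pair. Its probe ILMN_2597660 gave 4.21, 4.00, 4.24 and 4.56 in wild type and 4.63, 4.41 and 4.00 in knockout, near the floor throughout, with a difference of 0.093 (SE 0.20), or -0.038 without the pair. Pcdh7 gave 4.26, 4.64, 4.00 and 4.00 in wild type and 4.00, 4.74 and 4.47 in knockout, with a difference of 0.18 (SE 0.23), or 0.27 without the pair, and 3 arrays at the floor. The remaining Pcdh7 probes stayed under 16 on all arrays. Pcdh20 gave 8.97, 9.02, 8.37 and 8.73 in wild type and 8.61, 8.81 and 9.10 in knockout, with a difference of 0.063 (SE 0.21), or -0.016 without the pair. Its knockout values lay between 8.61 and 9.10 and its wild-type values between 8.37 and 9.02.

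**Figure D2:**
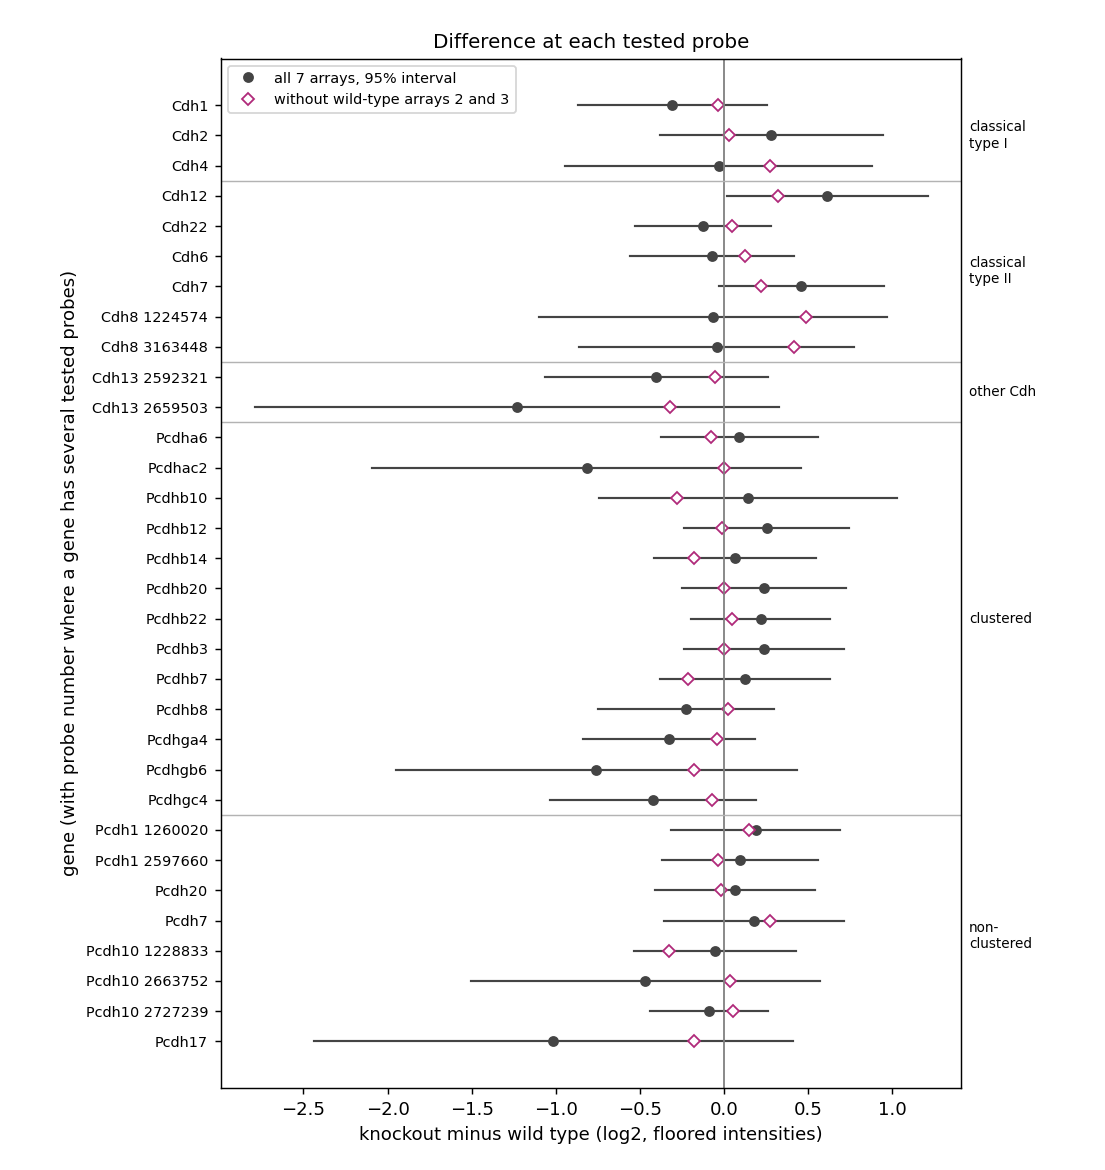
Knockout minus wild type at each of the 32 tested probes, on the log2 scale of floored intensities: filled circles with 95% limma intervals use all 7 arrays, and open diamonds leave out wild-type arrays 2 and 3. The interval of 1 probe, Cdh12, does not reach 0, and the diamonds of Cdh13, Pcdhac2, Pcdhgb6 and Pcdh17 lie well to the right of their circles.

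The clustered protocadherins were the largest class, and 26% of their genes were tested, against 20% of the other Cdh genes. In the beta cluster 8 genes were tested, and 7 of them were above 0, with a median difference of 0.18. Pcdhb12 gave 6.32, 6.14, 5.63 and 6.50 in wild type and 6.37, 6.39 and 6.44 in knockout. The knockout values were nearly equal to each other and lay inside the wild-type range, and the difference was 0.25 (SE 0.21). Pcdhb22 gave 5.97, 5.83, 5.84 and 6.40 in wild type and 6.32, 6.25 and 6.11 in knockout, a difference of 0.22 (SE 0.18). Pcdhb3 gave 6.49, 6.36, 5.91 and 6.72 in wild type and 6.54, 6.51 and 6.77 in knockout, a difference of 0.24 (SE 0.21). In Pcdhb12, Pcdhb22 and Pcdhb3 alike, wild-type arrays 2 and 3 were the 2 lowest of the 7. Pcdhb20 gave 5.09, 4.32, 4.79 and 4.97 in wild type and 5.26, 4.93 and 4.89 in knockout, a difference of 0.24 (SE 0.21), with the same arrays lowest. Without the pair the differences of Pcdhb12, Pcdhb22, Pcdhb3 and Pcdhb20 were -0.011, 0.044, -0.00022 and -0.00050. Pcdhb7, Pcdhb10 and Pcdhb14 had differences of 0.064 to 0.14, and Pcdhb8, at the floor on 3 arrays, had -0.23 (SE 0.23). Averaged over the 8 genes, the deviation from each gene's mean was -0.33 and -0.19 on wild-type arrays 2 and 3. It was 0.11 and 0.20 on the other wild-type arrays, with 0.0086 to 0.13 on the knockout arrays. Without arrays 2 and 3 the median of the beta genes was -0.0057, with 2 genes above 0 and 6 below.

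In the gamma cluster the 3 tested genes were all below 0, with a median difference of -0.42. Pcdhgb6 gave 5.37, 6.96, 5.07 and 4.34 in wild type and 4.80, 4.46 and 4.76 in knockout. It was highest on array 2 of wild type and lowest on array 4, and the difference was -0.76 (SE 0.52), or -0.18 without wild-type arrays 2 and 3. Pcdhgc4, needed for the survival of neurons in mice, gave 5.42, 5.78, 6.55 and 5.52 in wild type and 5.48, 5.28 and 5.43 in knockout, with array 3 highest. Its difference was -0.42 (SE 0.27), or -0.074 without that pair. Pcdhga4 gave 4.49, 5.03, 4.80 and 4.20 in wild type and 4.17, 4.17 and 4.55 in knockout, a difference of -0.33 (SE 0.22), or -0.044 without the pair. The mean deviation of the 3 genes was 0.015, 0.84, 0.40 and -0.39 on wild-type arrays 1 to 4 and -0.26, -0.44 and -0.16 on the knockout arrays, so that wild-type array 4 lay among them. The median of the gamma genes was -0.074 when the pair was left out.

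In the alpha cluster, Pcdhac2, whose first exon is one of the C-type exons at the end of the cluster, gave 5.77, 7.25, 6.56 and 4.79 in wild type and 4.98, 4.80 and 6.04 in knockout. Arrays 2 and 3 of wild type were the 2 highest, and wild-type array 4 was the lowest. The difference was -0.82 (SE 0.56), and -0.0037 without arrays 2 and 3. Pcdha6 ranged from 8.85 to 9.48 in wild type and from 8.95 to 9.53 in knockout at the probe ILMN_3076948, with a difference of 0.089 (SE 0.20), or -0.077 without the pair. The other Pcdha6 probe, ILMN_3155884, stayed under 16 on all arrays, so the probes of this gene disagree on its level. Clustered genes resemble each other, and alpha and gamma transcripts share the constant exons of their cluster. Whether a probe reads 1 member or several was not tested.

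**Figure D3:**
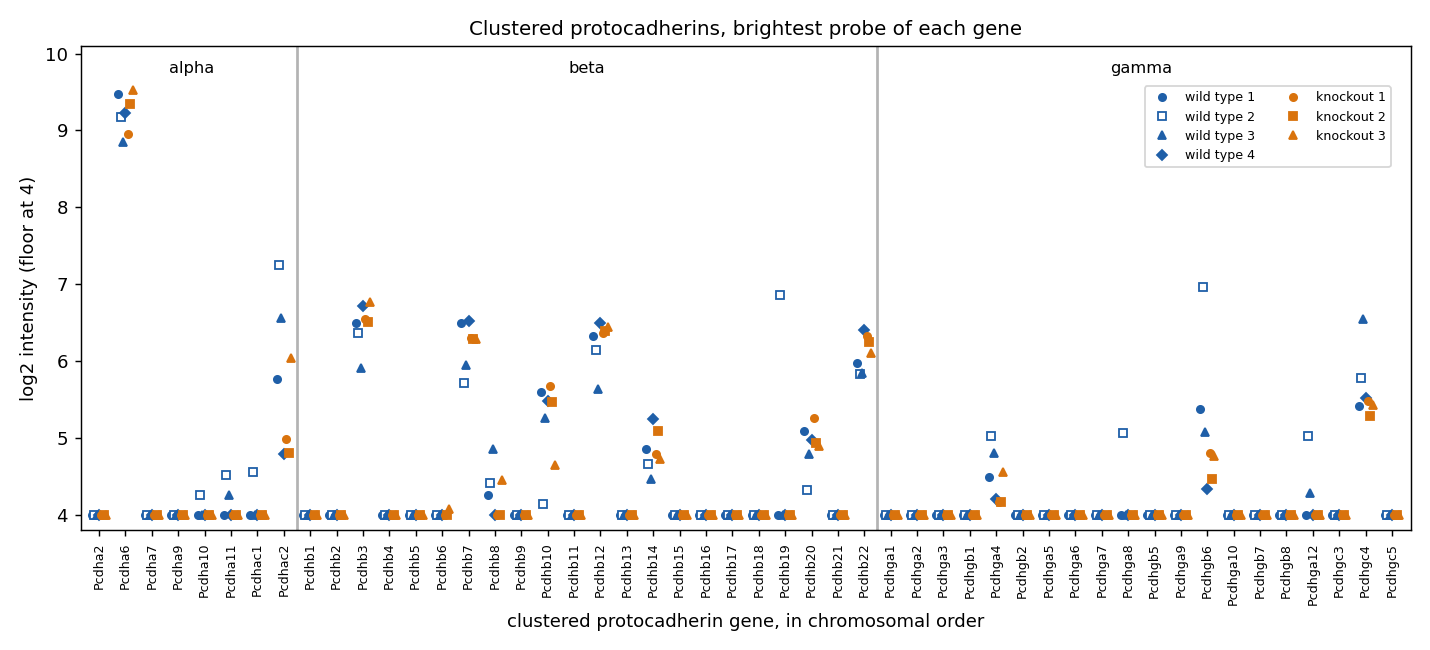
Log2 intensity, floored at 4, of the brightest probe of each of the 50 clustered protocadherin genes in chromosomal order, with 7 symbols a gene for the 4 wild-type (blue, array 2 open) and 3 knockout (orange) arrays. Most genes lie at the floor on all arrays, and 7 of the 8 tested beta genes are lowest on wild-type array 2 or 3, whereas Pcdhac2 and the tested gamma genes are highest on these arrays.

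Set side by side, the classes differed little in their medians. With 1 probe a gene, the median difference was -0.038 for the 8 classical cadherins tested (3 above 0, 5 below), 0.089 for the 13 clustered protocadherins (8 above, 5 below) and 0.063 for the 5 non-clustered ones (3 above, 2 below). Over all 9079 genes tested it was 0.033, with 4998 above 0 and 4081 below. Without wild-type arrays 2 and 3 the classical cadherins stood at 0.17 (7 above, 1 below), the clustered at -0.044 (2 above, 11 below) and the non-clustered at 0.051, against 0.0036 for all genes. Both the classical and the clustered medians thus changed sign with the 2 arrays, and 17 of the 32 member probes did so. The share of all tested probes that changed sign was not counted, so the 17 say nothing particular to the members. No test was made of a difference between classes.

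Several members below the filter were above 16 on wild-type array 2 alone. Of the 12 member probes above 16 on 1 or 2 arrays, 9 were so on array 2 of wild type, 75% against 49.8% of the 1425 such probes on the whole array. Pcdh9, a delta-1 protocadherin of cortex and other brain regions, had an intensity of 338.4 on wild-type array 2 and of 0.30 to 10.4 on the other 6 arrays, so that it read as a signal in 1 brain only. Pcdhb19 had 116.1 on that array and 1.93 to 14.9 elsewhere, and Pcdhga8 had 33.3 and at most 5.62 elsewhere. Pcdhga12 had 32.6 on array 2 and 19.5 on array 3 of wild type, and Pcdha11 had 22.8 and 19.0 on the same arrays. Pcdha10, Pcdhac1, Pcdhb1 and the hair-cell cadherin Cdh23 exceeded 16 on array 2 only, by less than 8 intensity units. Cdh11, a mesenchymal and neuronal type II cadherin, exceeded it slightly on wild-type arrays 3 and 4, and Pcdhb6 and the delta-2 member Pcdh8 on knockout array 3.

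Wild-type array 2 exceeded the mean of the other wild-type arrays by more than 1 log2 unit at 7 of the 32 tested member probes, 21.9% against 7.55% of all tested probes, and fell short of it by more than 1 at 2, against 7.85% of all. The wild-type group was the more variable at member probes, with a median SD of 0.38, or 0.31 without array 2, against 0.23 in knockout. Over all tested probes those medians were 0.33, 0.21 and 0.14. Marker sets differed in how they moved with this array, and their part in the member values was not tested. The neuron, oligodendrocyte and microglia sums were lowest of all arrays on array 2, at 27763, 25303 and 1191. The oligodendrocyte sum was nearly as low on knockout array 3, at 25619. Astrocyte, endothelial, meningeal fibroblast, choroid plexus and cerebellum sums were neither highest nor lowest there. Sums weigh the brightest markers most, and mean log2 deviations from each marker's mean gave a different account for some sets. By these, astrocyte (0.34) and choroid plexus (0.18) markers were highest on array 2 and meningeal fibroblast markers lowest (-0.28). Oligodendrocyte markers were lowest on knockout array 3 (-0.13), with -0.094 on array 2. All 4 erythroid markers on the array were measured, and their summed intensity was 29407 on array 2, 10596 to 18343 in the rest of the wild type and 8988 to 13322 in knockout. The summed hippocampus markers (5 of 5 measured) ran from 2005 to 3250 in wild type, highest on array 2, and from 1821 to 2246 in knockout. Cerebral cortex markers (5 of 5) ran from 1489 to 3407 in wild type, again highest on array 2, and from 1312 to 1696 in knockout. Thalamus markers (5 of 6, without Synpo2) ran from 2216 to 3516 and from 2145 to 2174, with wild-type arrays 2 and 3 highest. Striatum markers (4 of 4) ran from 3938 to 4787 in wild type, highest on array 2, and from 3580 to 3682 in knockout. Olfactory bulb markers (5 of 7, without Eomes and Tbx21) ran the other way, from 840.1 to 1653 in wild type, where arrays 2 and 3 were lowest, and from 1174 to 1761 in knockout. For the thalamus and striatum sets every wild-type sum lay above every knockout sum, and this separation was not tested.

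Probes of 1 gene did not always give the same account of that array. Of the 12 member genes with several probes, 4 had 2 or more tested probes, 9 in all. Relative to the mean of the other wild-type arrays, array 2 stood at 1.76 and 1.31 log2 units at the probes of Cdh8, and at -0.67 and -0.34 at those of Pcdh1, on the same side of 0 in each gene. At Cdh13 it stood at 2.65 and 0.36. At Pcdh10 the 3 probes gave 1.89, 0.11 and -0.65, on both sides of 0. These probes carry the same transcript accession in the annotation, and which exons they read was not analysed here.

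**Figure D4:**
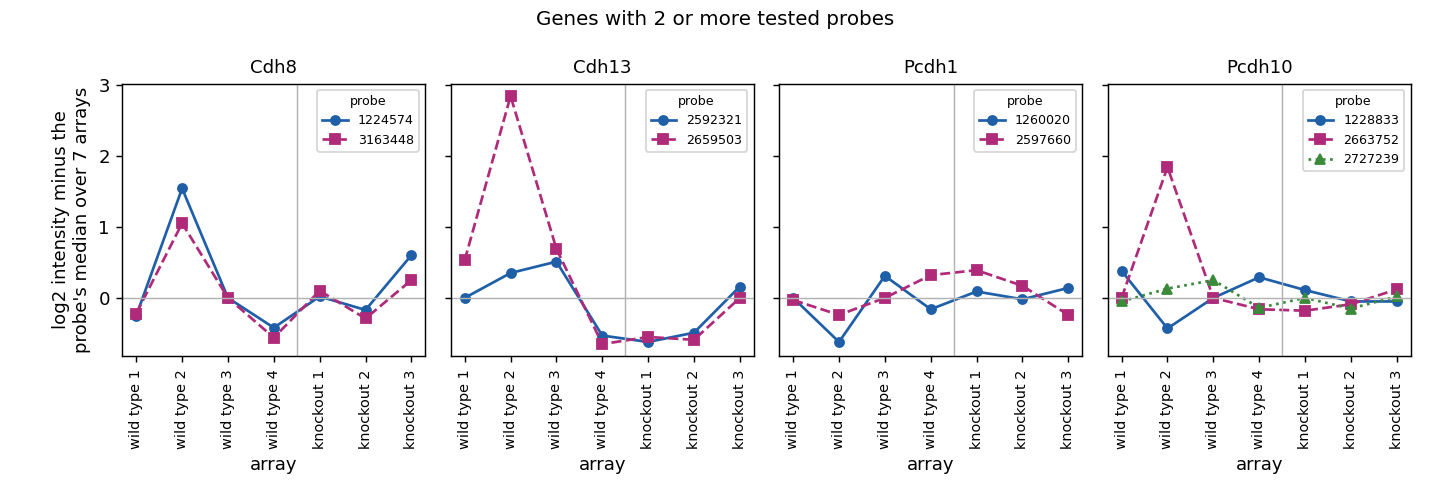
Log2 intensity of each tested probe of Cdh8, Cdh13, Pcdh1 and Pcdh10 on the 7 arrays, as the difference from the probe's median over the arrays; a grey vertical line parts the wild-type from the knockout arrays. Both Cdh8 probes peak on wild-type array 2, and at Cdh13 and Pcdh10 a single probe does so strongly.

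Of the members with a window in the promoter table, 4 had a probe more than 1 log2 unit above the mean of the other wild-type arrays on array 2. Pcdh9 did so from below the filter. At Pcdh10 only the probe ILMN_2663752 did so, at 1.89, against 0.11 and -0.65 at the others. The start regions of these 4 genes are shown because each had such a probe. Each window holds 300 bases, 250 before and 50 after the transcript start, from RefSeq on build GRCm38.p6, written 5′ to 3′ along the gene. The letters CCAAT, and ATTGG for the same box on the other strand, are in capitals; this box was chosen after the sequences had been seen. Pcdh17 lies at chr14:84443313-84443612 on the plus strand, Pcdh10 at chr3:45378148-45378447 on the plus strand, Pcdh9 at chr14:93890630-93890929 on the minus strand and Cdh8 at chr8:99416422-99416721 on the minus strand.
Pcdh17: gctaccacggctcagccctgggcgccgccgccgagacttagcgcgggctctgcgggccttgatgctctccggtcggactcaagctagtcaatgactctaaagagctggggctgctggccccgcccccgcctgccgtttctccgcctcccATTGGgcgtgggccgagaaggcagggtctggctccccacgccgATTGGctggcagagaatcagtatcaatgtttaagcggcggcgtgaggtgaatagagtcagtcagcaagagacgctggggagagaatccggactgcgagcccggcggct
Pcdh10: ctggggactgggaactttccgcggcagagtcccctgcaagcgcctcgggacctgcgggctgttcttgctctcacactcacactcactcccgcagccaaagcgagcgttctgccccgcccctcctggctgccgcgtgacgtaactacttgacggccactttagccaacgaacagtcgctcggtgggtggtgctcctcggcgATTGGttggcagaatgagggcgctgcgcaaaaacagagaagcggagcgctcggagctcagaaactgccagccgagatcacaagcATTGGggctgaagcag
Pcdh9: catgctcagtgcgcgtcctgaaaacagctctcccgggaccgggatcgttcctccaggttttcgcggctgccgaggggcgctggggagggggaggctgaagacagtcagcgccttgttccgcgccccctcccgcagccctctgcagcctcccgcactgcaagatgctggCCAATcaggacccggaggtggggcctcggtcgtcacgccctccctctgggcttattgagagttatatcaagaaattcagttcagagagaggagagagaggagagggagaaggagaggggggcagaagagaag
Cdh8: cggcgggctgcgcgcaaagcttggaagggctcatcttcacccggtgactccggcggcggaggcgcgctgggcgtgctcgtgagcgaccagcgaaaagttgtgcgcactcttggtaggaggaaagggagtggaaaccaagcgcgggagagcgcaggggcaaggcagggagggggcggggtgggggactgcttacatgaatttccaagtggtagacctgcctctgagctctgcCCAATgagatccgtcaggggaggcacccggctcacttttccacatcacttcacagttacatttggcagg

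The Pcdh17 window holds the box 101 and 58 bases before the start, and the Pcdh10 window 50 bases before and 34 after it. The Pcdh9 window, 1 of 2 for that gene, holds it 82 bases before the start, and the Cdh8 window 19 bases before. The windows are rich in G and C, at 65% for Pcdh17, 62.3% for Pcdh10 and Cdh8 and 62.7% for Pcdh9. Windows were found for 17 of the 77 member genes, 20 windows in all, and no clustered protocadherin or type I cadherin had one. Of the 20 windows 13 (65%) hold CCAAT or ATTGG, against 37.4% of the 32851 windows of all genes. The box was chosen after sequences among them had been seen, so this comparison is not a test. The match describes the letters and is not evidence that a factor binds there.

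No gene of the lists of partners passed the test either. Among catenins and junction partners 16 of 28 listed genes were measured, 10 above 0 and 6 below with a median of 0.11, and 0 had an adjusted p under 0.05. Without wild-type arrays 2 and 3 that median was 0.0092. Over all 9079 genes tested, 4998 of them above 0, the median was 0.033, or 0.0036 without the pair. The receptor phosphatase Ptprf, which binds the cadherin-catenin complex, had -0.57 (SE 0.26), or -0.25 without wild-type arrays 2 and 3, and the alpha-catenin relative Ctnnal1 had 0.34 (SE 0.20), or 0.24. The phosphatases Ptprm and Ptpn1 had 0.27 (SE 0.16) and -0.64 (SE 0.66), and 0.27 and 0.32 without the pair. Of 7 measured genes in other branches of the cadherin superfamily 4 were above 0 and 3 below. Their median was 0.087, or -0.037 without the pair. Of the 8 probes tested in this list 1 had groups that did not overlap, against 7.39% of all tested probes. That probe was of Clstn3, a postsynaptic calsyntenin. It gave 11.73, 11.87, 11.82 and 11.83 in wild type and 11.56, 11.54 and 11.50 in knockout, a difference of -0.28 (SE 0.13), or -0.24 without wild-type arrays 2 and 3 (exact permutation p = 0.0286, adjusted p = 0.754 in limma). Celsr3, a seven-pass cadherin of axon guidance, had 0.58 (SE 0.37), and 0.093 without wild-type arrays 2 and 3. The olfactory Cdhr1 had 0.38 (SE 0.30) and Cdhr3 had -0.19 (SE 0.18), or 0.27 and -0.15 without the pair.

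Among 12 measured genes that act at clustered protocadherin promoters, 10 were above 0 and 2 below, with a median of 0.30, or 0.15 without wild-type arrays 2 and 3, and 0 passed at an adjusted p under 0.05. At the probe ILMN_3048503 the cohesin loader Nipbl gave 8.52, 8.01, 8.03 and 8.26 in wild type and 8.66, 8.44 and 8.51 in knockout, a difference of 0.33 (SE 0.17), or 0.15 without the pair. It was lowest on wild-type arrays 2 and 3. Dnmt3b, the methyltransferase that sets promoter methylation of these genes, had 0.33 (SE 0.19), the cohesin subunit Smc1a had -0.059 (SE 0.15) and the maintenance methyltransferase Dnmt1 had -0.056 (SE 0.18). Without the pair these were 0.25, -0.16 and -0.028. Of 15 measured cytoplasmic and membrane partners of protocadherins 9 were above 0, with a median of 0.057, or 0.0015 without the pair. Of the 22 probes tested in this list 1 had separate groups, against 7.39% of all tested probes. That probe was of Prkca, a protein kinase C in the pathway by which gamma protocadherins act on dendrites. It gave 5.01, 5.12, 5.24 and 5.04 in wild type and 5.26, 5.48 and 5.65 in knockout, a difference of 0.36 (SE 0.15), or 0.44 without wild-type arrays 2 and 3 (exact permutation p = 0.0286, adjusted p = 0.754 in limma). The actin regulators Brk1, Wasf3 and Abi2 had 0.28 (SE 0.22), -0.58 (SE 0.42) and -0.13 (SE 0.21), or 0.035, -0.25 and -0.070 without the pair. Of 10 measured proteases that cut cadherins 7 were above 0, with a median of 0.21, or 0.072 without the pair, and 0 passed. Mmp9 had 0.45 (SE 0.25), Adam9 0.60 (SE 0.37), Mmp14 -0.63 (SE 0.45) and the gamma-secretase subunit Aph1a -0.44 (SE 0.38). These were 0.20, 0.21, -0.066 and 0.096 without wild-type arrays 2 and 3, so that Aph1a turned sign. At an unadjusted p under 0.05 in limma, 1 of 17 probes of the promoter list and 1 of 22 of the partner list, that of Prkca, were counted. The share over all tested probes was 4.2%, and the count was 0 in each of the other lists. The probe of the promoter list was a dimmer Nipbl probe, ILMN_3124374. It lay at the floor on wild-type arrays 1, 2 and 4, at 4.37 on array 3 and at 4.22, 4.69 and 4.65 in knockout. Its difference was 0.43 (SE 0.18).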

How the data were processed

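Total RNA of 7 brains was measured on 7 arrays, 4 wild type and 3 knockout. The deposited values are normalized probe intensities on a linear scale, made with GenomeStudio 2011.1 per the submitters' processing notes. That the background was subtracted and the arrays were scaled to each other shows in the values themselves. The sources used here do not give the method. A second table was not used, since its 7 columns of signal could not be tied by name to the mice. This replaced the usual correction of raw bead signals.

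Gene symbols came from the platform annotation, which gave 1 symbol for 23978 probes and none for 1719. All 77 member genes were found in the RefSeq gene table (GRCm38.p6) by gene ID, with 0 symbols changed. No pair of arrays shared more than 0.00389% of its values.

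Intensities were floored at 16, log2 was taken, and the 12833 probes above 16 on at least 3 arrays went into one model with group as its single term (lmFit and eBayes, limma 3.58.1, R 4.3.3). P-values were adjusted by Benjamini-Hochberg over all 12833, with a threshold of 0.05, and every adjusted p, SE and interval of a difference comes from this fit. Two-sided exact permutation tests used the 35 splits of the arrays. The floor understates differences of dim probes. For class medians a gene with several probes counts once, by the brightest on average. The model fit was tested on simulated data in which dim probes were raised and the floor of 16 was not used. The floor and the filter were thus not tested.

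The members, classes, gene lists and the rule for named genes were chosen with earlier results of these data known. The rule names up to 4 members per class and direction with the smallest unadjusted p, those with separate groups, the genes Cdh2, Cdh8, Cdh13, Pcdh9, Pcdh10, Pcdh17 and Pcdh19, and up to 2 genes per list and direction. Pcdh19 was not analysed here. Alternatives covered the floor, the filter, normalization, variance model, array weights, a replicate block, left-out arrays and the choice of probe.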

Additional observations from a re-analysis of the deposited data

Results flagged for a closer look

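In 5 member probes the highest or lowest of the 4 wild-type arrays lay far from the other 3, its gap to the nearest one as a share of the group's range exceeding Dixon's 95% critical value for 4 samples. Chance gives such a gap in about 1 of 20 groups. Pcdh10 at the probe ILMN_2663752 stood at 9.24 on array 2, against 7.24 to 7.40 on the others. Cdh4 stood at 4.00, the floor, on array 4, against 5.29 to 5.45. Among members above 16 on too few arrays to be tested, compared as linear intensities, array 2 stood out with 338.4 for Pcdh9, 116.1 for Pcdhb19 and 33.3 for Pcdhga8. Such a gap was found at 2 of 32 tested member probes (6.25%), against 10.5% of all tested probes, and at 3 of the 12 member probes above 16 on only 1 or 2 arrays (25%), against 17.3% of the 1425 such probes. Being high on few arrays is what defines the latter probes, so the chance rate does not apply to them.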

How the results depend on the processing

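No member probe had an adjusted p under 0.05 in limma under any of the alternatives, where the lowest member value was 0.116. At an unadjusted p under 0.05 the count of 1, Cdh12, was 0 with a floor of 8 or 32, no filter, quantile normalization or trended variance, and 5 with array weights (Cdh12, Cdh7, Cdh13, Pcdhgb6, Pcdh10), against 20.6% of all probes; these weights gave array 2 of wild type a weight of 0.10 and called 28 probes of the whole array, 0 of them members, at an adjusted p under 0.05. Leaving out single arrays gave 0 to 7, with 7 without wild-type array 4, where 12.7% of all probes passed. Without wild-type arrays 2 and 3 the 1 probe was of Pcdh10 (ILMN_1228833), not Cdh12. Separate groups were found at 0 to 7 member probes with 1 array left out, again 7 without wild-type array 4 (23.1% of all probes), and at 3 without wild-type arrays 2 and 3 (Cdh8, Pcdhb7, Pcdh10; 17.2% of all probes), where fewer arrays make separation likelier.

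The replicate numbers did not pair the mice: deviations of same-numbered arrays correlated at 0.080, -0.13 and -0.037, and 0 of 6 arrays correlated best with their own number. With that block, over replicates 1 to 3, 7 member probes had an unadjusted p under 0.05, against 1535 of all 12833 probes, and the medians were -0.16 for classical and 0.21 for clustered members, with Pcdh10 ILMN_1228833 at 0.021. That fit also lacks wild-type array 4; without this array and with no block the same 7 probes were counted and both medians were the same.

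The classical median of -0.038 was 0.17 both with array weights and without wild-type arrays 2 and 3, and -0.16 to 0.097 with 1 array left out. The clustered median of 0.089 was -0.097 with a floor of 8, 0 without a filter, -0.14 with array weights, -0.044 without both arrays and -0.028 to 0.21 with 1 left out. The classical, non-clustered, beta and gamma medians were also 0 without a filter. A gene at the floor on all arrays has a difference of exactly 0, which pulls these medians to 0.

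Differences turned sign for Cdh4 (0.12) with a floor of 8. With array weights they did so for Cdh6 (0.15), Cdh8 (0.31 and 0.19), Pcdha6 (-0.15), Pcdhb10 (-0.22), Pcdhb20 (-0.037), Pcdhb7 (-0.17) and Pcdh20 (-0.11). Without wild-type arrays 2 and 3 they did so for Cdh4 (0.27), Cdh22 (0.050), Cdh6 (0.12), Cdh8 (0.49 and 0.42), Pcdha6 (-0.077), Pcdhb10 (-0.28), Pcdhb12 (-0.011), Pcdhb14 (-0.18), Pcdhb20 (-0.00050), Pcdhb3 (-0.00022), Pcdhb7 (-0.21), Pcdhb8 (0.025), Pcdh1 (-0.038), Pcdh20 (-0.016) and Pcdh10 (0.034 and 0.051). With 1 array left out, ranges that crossed 0 were -0.38 to 0.29 for Cdh4, -0.19 to 0.082 for Cdh6, -0.29 to 0.38 and -0.25 to 0.28 for Cdh8, -0.039 to 0.25 for Pcdha6, -0.19 to 0.45 for Pcdhb10, -0.051 to 0.21 for Pcdhb14, -0.028 to 0.24 for Pcdhb7, -0.048 to 0.27 for Pcdh1, -0.072 to 0.18 for Pcdh20, and -0.22 to 0.052 and -0.66 to 0.0043 for Pcdh10. The cause of these turns was not tested.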
